A study of Mus musculus with 3 samples.

Results

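The genes described here are 38 mouse genes known for transcripts that are abundant in oocytes, followed in whole ovaries of mice with and without a Cre-driven deletion of Bmal1 in cells that express Sf-1. They are a list of oocyte-enriched genes taken by name. Of the 38 genes, 36 had a probe on the array and 34 passed the filter on dim probes, out of 17852 genes tested in all. No probe was named for Sohlh1 or Omt2a, and the probes of Gpr3 and Nlrp9b were not well above background in either channel on any array. H1foo is listed as H1f8 in current annotation.

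The study compared ovaries of female C57Bl/6J mice aged 10 weeks that carried floxed Bmal1 alleles. The conditional knockout (cKO) mice, Bmal1fx/fx with Cre under the sf-1 promoter, also carried the transgene, and the controls, Bmal1fx/fx, did not, so both genotypes shared the floxed alleles, the strain, the light cycle and free access to food. All were killed at ZT12, 12 hours after lights-on, on day 3.5 post copulation, soon after ovulation and mating. Each of 3 Agilent 2-colour arrays set 1 pool of 3 cKO RNA samples, labelled cy3, against 1 pool of 3 control RNA samples, labelled Cy5. Cre under the Sf-1 (Nr5a1) promoter acts in steroidogenic somatic cells of the gonad and in the adrenal and pituitary, and is not an oocyte driver. The deletion was therefore aimed at the cells around the oocyte, and also at other organs of the reproductive axis. The dyes were never swapped, so an effect of dye and an effect of genotype cannot be told apart. In RNA from a whole ovary, fewer oocytes and less RNA per oocyte cannot be told apart either.

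The mammalian oocyte grows inside a follicle for weeks while it stores the RNA and protein of the early embryo. It secretes the zona pellucida, a glycoprotein coat, and growth factors that act on the granulosa cells around it. Granulosa cells in turn supply kit ligand, metabolites and the signals that hold the oocyte in meiotic arrest. Transcription factors such as FIGLA, NOBOX, SOHLH1 and LHX8 switch on the oocyte programme as primordial follicles form and begin to grow, and most of the genes below are active from then until ovulation. BMAL1 is the clock factor that binds E-boxes with CLOCK, and FIGLA is a basic helix-loop-helix factor that also acts through E-boxes.

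Promoter sequence is shown for 5 members whose array values mark the range of behaviour described below, since E-boxes are the elements through which both the deleted factor and a member of the list act. RefSeq promoters on build GRCm38.p6 were matched for 28 of the 38 genes. Each line gives the 250 bases before the annotated start, 5′ to 3′ on the gene's strand, with every CANNTG E-box in capitals. The windows are Zp3 at chr5:135979855-135980104 on the plus strand, Zar1 at chr5:72581085-72581334 on the minus strand and Oosp1 at chr19:11691052-11691301 on the minus strand. Those of Oog1 at chr12:87602415-87602664 and of Btg4 at chr9:51115751-51116000 are on the plus strand.
Zp3: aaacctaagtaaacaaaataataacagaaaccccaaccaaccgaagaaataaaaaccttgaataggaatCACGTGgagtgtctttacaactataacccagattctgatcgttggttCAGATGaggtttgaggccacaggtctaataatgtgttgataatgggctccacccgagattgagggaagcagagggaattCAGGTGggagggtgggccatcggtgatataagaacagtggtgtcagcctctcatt
Zar1: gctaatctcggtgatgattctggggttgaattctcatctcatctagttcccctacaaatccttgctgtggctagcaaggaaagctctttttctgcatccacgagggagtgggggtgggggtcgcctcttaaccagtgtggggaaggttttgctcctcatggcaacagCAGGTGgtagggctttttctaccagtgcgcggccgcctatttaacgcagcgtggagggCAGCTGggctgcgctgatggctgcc
Oosp1: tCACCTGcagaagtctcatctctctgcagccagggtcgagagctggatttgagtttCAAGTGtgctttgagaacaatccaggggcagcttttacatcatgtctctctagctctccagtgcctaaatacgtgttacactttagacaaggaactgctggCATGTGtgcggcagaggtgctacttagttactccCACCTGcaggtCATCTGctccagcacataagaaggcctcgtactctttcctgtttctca
Oog1: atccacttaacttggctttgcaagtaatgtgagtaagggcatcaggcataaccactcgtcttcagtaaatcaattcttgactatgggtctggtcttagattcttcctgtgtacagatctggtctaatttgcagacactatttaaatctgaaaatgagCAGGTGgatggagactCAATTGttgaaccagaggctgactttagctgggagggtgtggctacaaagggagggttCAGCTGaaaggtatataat
Btg4: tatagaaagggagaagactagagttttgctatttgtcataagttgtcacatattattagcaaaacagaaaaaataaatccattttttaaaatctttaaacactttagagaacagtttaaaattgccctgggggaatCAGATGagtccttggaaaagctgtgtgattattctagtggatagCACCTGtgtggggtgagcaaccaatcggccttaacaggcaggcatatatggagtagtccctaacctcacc
A CANNTG motif, searched on both strands, occurred in the windows of 22 of the 28 matched genes (78.6%), against 69.3% of 27025 genes in the table. The CACGTG form, to which BMAL1 and CLOCK bind and which is one of the CANNTG forms, was found in 4 genes (14.3%), Ddx4, Dnmt3l, Sohlh1 and Zp3, against 6.86% of all genes. CAGGTG or its complement CACCTG, also within CANNTG, was found in 12 (42.9%) against 19.4%. Both CACGTG and CAGGTG stand in the Zp3 window, and the Zar1, Oosp1, Oog1 and Btg4 windows have CAGGTG or CACCTG but not CACGTG. The homeobox letters TAATTA or TAATTG, an element of NOBOX, were found in Bmp15, Nlrp5, Nlrp9b and Ooep, 14.3% of the matched genes against 12.9% of all. These are matches of letters and no binding was measured.

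The filter kept genes well above background in 1 genotype's channel on all 3 arrays. Each of the 34 genes kept cleared the scanner's background threshold for both dyes on every array, the 3 zona genes among them. Signal from these genes was thus above background in each of the 6 pools. For each gene, detection in the pools of 1 genotype was set by that filter, while detection in the other genotype's pools was not required. Some of the genes, such as E2f8, Dnmt1 and Uchl1, are also expressed by other cells. Detection alone therefore does not show how much oocyte RNA each pool held. Over the arrays, 67.4% to 69.1% of spots were well above background in the cKO channel and 62.9% to 65.8% in the control channel. Ratios are log2 of cKO over control after background correction and loess normalisation, so that values above 0 mean more signal in cKO. The probe of the floxed gene itself, Arntl (Bmal1), gave log2 ratios of 0.27, 0.13 and -0.24 on arrays 1, 2 and 3. The deleted part of Bmal1 is not given in the sources used here, so that probe does not check the genotype.

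No oocyte-enriched gene passed the test for a difference between genotypes. At an adjusted p of 0.05 (limma, Benjamini-Hochberg over all genes), 0 of the 34 were called in either direction, against 31 of 17852 genes in all, or 0.174% (0.0672% higher and 0.106% lower). At an unadjusted p under 0.05 the count was 2 of 34, Zp2 and Zar1, both lower in cKO, where 12.3% of all genes reached that level and 6.43% did so with lower values in cKO. That count was 0 without array 1, 1 without array 2 and 11 without array 3. Of the 17852 genes in all, 771, 1386 and 4783 reached that level in the same 3 fits. The count of adjusted calls over all genes itself depended on single arrays: it was 1 without array 1, 20 without array 2 and 0 without array 3, and no oocyte-enriched gene was called in any of these fits. The members' adjusted p-values ran from 0.254 for Zar1 to 0.994 for Mos. The median over the 34 genes of the mean log2 ratio was -0.03, beside 0.00 for all genes, with 15 means above 0 and 19 below (50% of all genes above).

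The arrays disagreed about these genes. The members' median log2 ratio was -0.11 on array 1, -0.32 on array 2 and 0.38 on array 3, while the medians of all genes were -0.01, 0.00 and 0.01. On array 1, 24 of 34 members were below 0 (51.1% of all genes). On array 2, 25 of 34 members were below 0 (50.7% of all genes), and on array 3, 27 of 34 were above 0 (50.4% of all genes). The pattern of below 0 on arrays 1 and 2 and above 0 on array 3 was shown by 16 of 34 members (47.1%), where 18.8% of all genes showed it. Log2 ratios stood above 0 on all 3 arrays for 3 members, Padi6, H1foo and Oas1d (17.5% of all genes), and below 0 on all 3 for 4, Zp2, Zar1, Kit and Uchl1 (17.8% of all genes). The mirror image, above 0 on arrays 1 and 2 and below 0 on array 3, was shown by 2, Zp3 and Nlrp5, where 17.3% of all genes did. A second, dimmer Zp3 probe read 0.22 on array 3. The count of 16 depended on the processing: it was 20 with the scanner's own processed signals (25.1% of all genes) and 7 with median centring in place of loess (11.6% of all genes). The order of the arrays moved less, with array 3 the highest of the 3 for 26 of 34 members (43.6% of all genes), and for 25 with median centring (37.6% of all genes). Array 2 was the lowest of the 3 for 21 members (32.1% of all genes). For 20 of 34 members array 2 was the lowest and array 3 the highest, beside 24.4% of all genes. The median SD of a member over the 3 arrays was 0.46, against 0.28 over all genes. A wide spread was not particular to the members. Among the lists given below, the median SD was 0.45 for other oocyte genes and 0.41 for granulosa markers. It was 1.07 for macrophage, 1.10 for smooth muscle and 0.26 for luteal markers. Across the 34 genes, log2 ratios correlated between arrays 1 and 2 (Pearson r = 0.58), less between arrays 1 and 3 (r = 0.25) and negatively between arrays 2 and 3 (r = -0.28). Over all 17852 genes those values were 0.60, 0.21 and 0.01. Arrays 2 and 3 shared a slide and array 1 was on another.

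**Figure D1:**
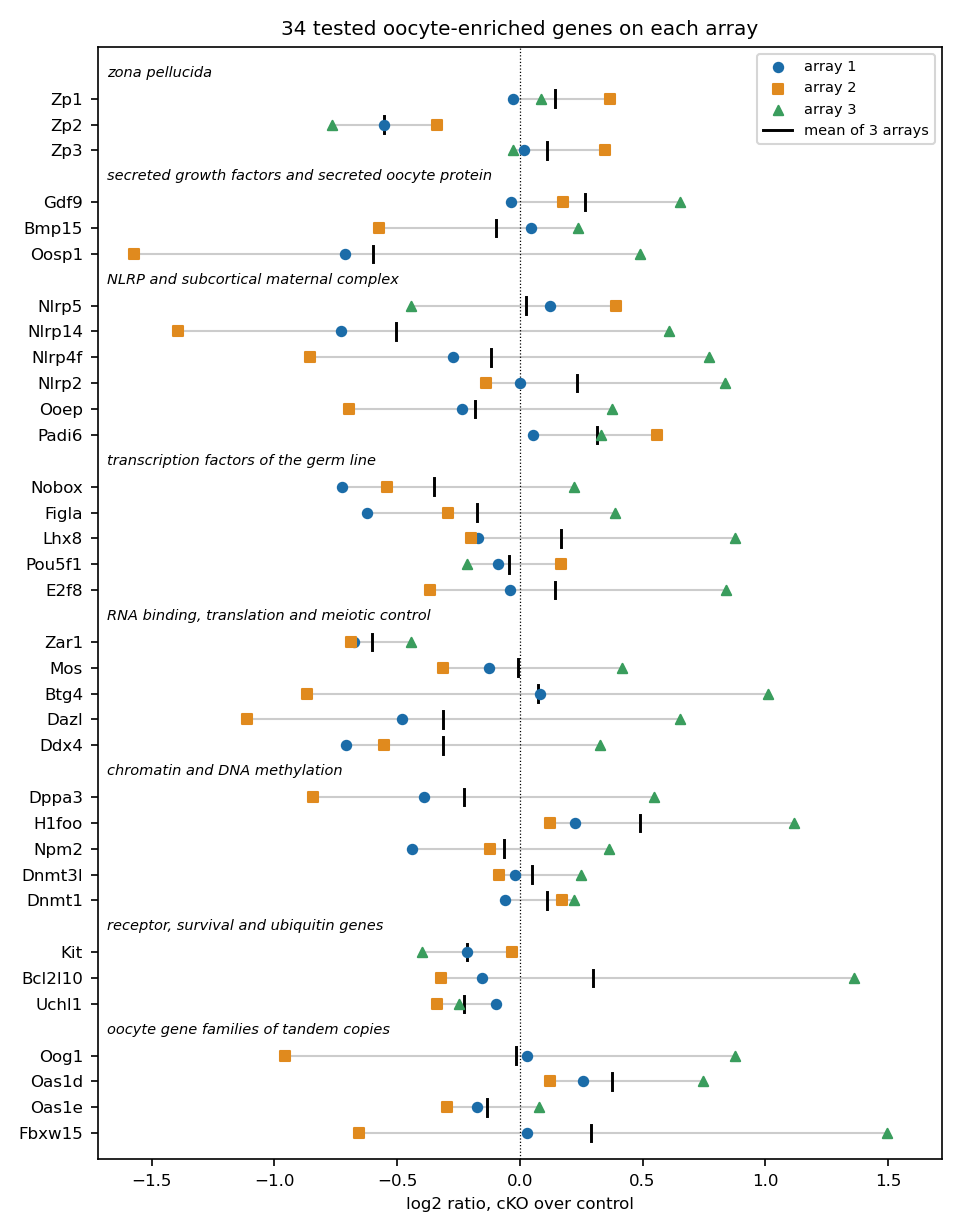
Log2 ratio of cKO over control (horizontal axis) for each of the 34 tested oocyte-enriched genes, grouped by role, with 1 symbol per array and a black bar at the mean of 3 arrays. Array 3 is the rightmost symbol for 26 of 34 genes, while Zp2, Zar1, Kit and Uchl1 have all 3 symbols left of 0.

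**Figure D2:**
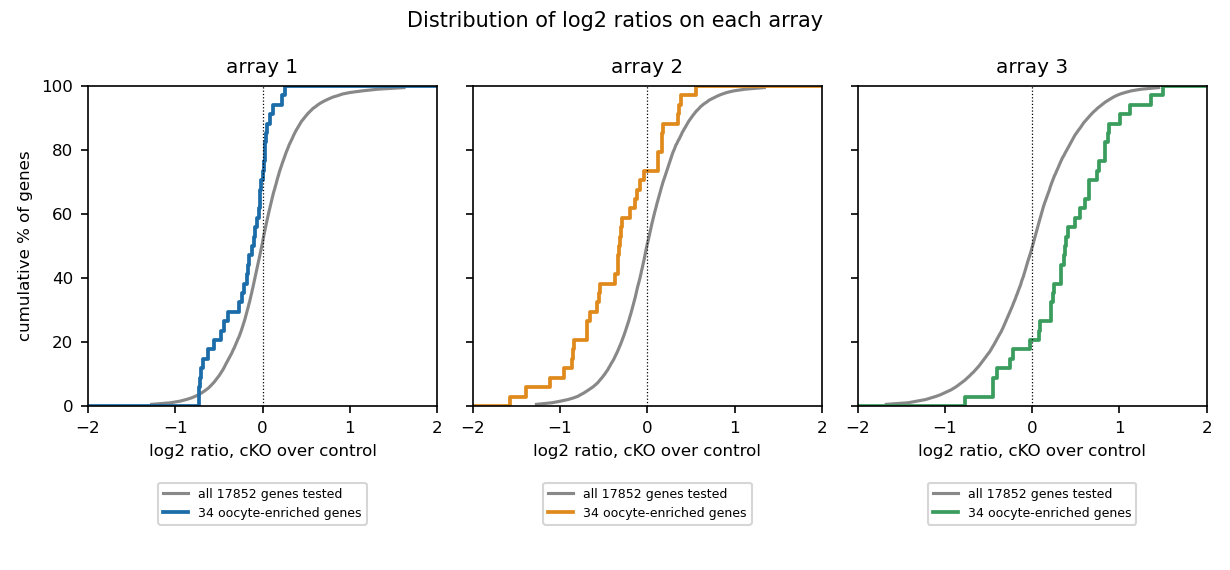
Cumulative percentage of genes (vertical axis) by log2 ratio of cKO over control (horizontal axis) on each array, for the 34 oocyte-enriched genes (coloured steps) and all 17852 genes tested (grey). The coloured line lies left of the grey one on array 2, where the members' median was -0.32, and right of it on array 3, where it was 0.38.

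The zona pellucida genes encode the coat that sperm bind, which is built by growing oocytes. They did not follow the pattern of the list. Zp3, a structural zona protein, read 0.02, 0.35 and -0.03 on arrays 1, 2 and 3, with a mean of 0.11 ± 0.20 (SD, n = 3 arrays, adjusted p = 0.823, limma). Its level, as normalised log2 intensity, was 10.67, 10.68 and 11.29 in the control pools and 10.69, 11.03 and 11.26 in the cKO pools. The genotypes overlapped, and array 3 held the highest Zp3 level of each genotype. Zp1, which crosslinks zona filaments, read -0.03, 0.37 and 0.09, and its mean of 0.14 ± 0.20 (SD, n = 3 arrays) became -0.11 with the scanner's processed signals. Zp2, the zona protein cleaved after fertilisation, was lower in cKO on every array, at -0.55, -0.34 and -0.76. The Zp2 mean of -0.55 ± 0.21 (SD, n = 3 arrays) corresponds to a level 1.47-fold higher in control, and its adjusted p was 0.295 (limma). With the scanner's processed signals it was -0.21 and with median centring -0.32. Control pools read 8.80, 9.0996 and 9.85 for Zp2 and cKO pools 8.25, 8.76 and 9.09, so that the highest cKO pool was above the lowest control pool. A dimmer second Zp2 probe gave -0.09, 0.01 and -0.21, so the 2 probes disagreed on the size of the difference. The second Zp3 probe read 0.17, 0.48 and 0.22, so the 2 Zp3 probes differed in sign on array 3.

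GDF9 and BMP15 are the paired TGF-beta family factors that the oocyte secretes to drive granulosa growth and cumulus function. Gdf9 read -0.03, 0.18 and 0.65, with a mean of 0.26 ± 0.35 (SD, n = 3 arrays, adjusted p = 0.629, limma). Its control levels were 12.76, 12.80 and 12.63 and its cKO levels 12.72, 12.97 and 13.28. Control pools thus lay close together, and the cKO pool on array 3 was the highest of the 6. Bmp15 read 0.04, -0.57 and 0.24, and its highest level, 9.42, was in the control pool of array 2. The mean for Bmp15 was -0.10 ± 0.42 (SD, n = 3 arrays), and it turned to 0.12 with median centring. Oosp1, which encodes a small secreted protein of the oocyte, varied far more, at -0.71, -1.57 and 0.49. Its control pools read 10.74, 11.92 and 10.65 and its cKO pools 10.03, 10.35 and 11.14. The control pool on array 2 stood 1.18 above the next control pool, and no cKO pool reached it. A second Oosp1 probe gave -0.79, -1.56 and 0.43, close to the first on each array. The mean of -0.60 for Oosp1 had an SD of 1.04 and an adjusted p of 0.632 (limma, n = 3 arrays). It ran from -1.14 without array 3 to -0.11 without array 2, and the Gdf9 mean from 0.071 without array 3 to 0.41 without array 1.

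The next group builds the subcortical maternal complex and the cytoplasmic lattices, which store maternal protein under the oocyte surface and are needed for the first cleavages. Nlrp5, whose product MATER is a core subunit, read 0.12, 0.39 and -0.44, with a mean of 0.02 ± 0.43 (SD, n = 3 arrays). Ooep, another core subunit, went the other way at -0.23, -0.70 and 0.38. Padi6, needed for the lattices, was above 0 on each array at 0.05, 0.56 and 0.33, with a mean of 0.31 ± 0.25 (SD, n = 3 arrays, adjusted p = 0.499, limma). With the scanner's processed signals the Padi6 mean was 0.0054 and array 1 read -0.29. Nlrp5 and Padi6 were thus highest on array 2 and Ooep on array 3. Nlrp14, an oocyte NLR protein gene, had one of the widest spreads, at -0.73, -1.39 and 0.61. Its control pools were at 11.54, 12.32 and 11.29 and its cKO pools at 10.81, 10.93 and 11.90, so that control was higher on arrays 1 and 2 and lower on array 3. The Nlrp14 mean was -1.06 without array 3 and -0.062 without array 2. Nlrp4f, a member of a tandem cluster, repeated that order at -0.27, -0.86 and 0.77. Nlrp2, a maternal-effect gene, read 0.00, -0.14 and 0.84. None of the 6 tested genes of this group passed the test. Probes in the Nlrp4 and Nlrp9 clusters may read near-identical copies, so values in them are uncertain as to the copy.

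Among the transcription factors, Nobox and Figla showed the same sequence of arrays. Nobox, a homeobox factor of early follicles, read -0.72, -0.54 and 0.22, with a mean of -0.35 ± 0.50 (SD, n = 3 arrays, adjusted p = 0.610, limma). Figla, which switches on the zona genes, read -0.62, -0.29 and 0.39. Its probe was dim, at 2.19 to 3.57 times background, and the scanner's processed signals gave -1.07, -0.44 and 0.90. The zona genes did not share this order, since Zp3 by its brighter probe was near 0 on arrays 1 and 3 and Zp2 was lowest on array 3. Lhx8, a LIM-homeobox factor of primordial follicles, read -0.17, -0.20 and 0.88, and its second probe had a smaller range of -0.05, -0.11 and 0.13. E2f8, an atypical repressor of the cell cycle that other dividing cells also express, read -0.04, -0.36 and 0.84. Pou5f1, the pluripotency factor that oocytes also store, stayed within -0.22 to 0.17. Its 6 pool levels lay between 6.64 and 6.89. That probe was dim, at 1.65 to 2.67 times background, and the scanner's processed signals gave a wider -0.14, 0.56 and -0.49. No factor of the 5 tested passed the test.

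RNA-binding proteins keep maternal messages dormant or release them for translation or decay. Zar1, a binder of maternal messages, had the lowest unadjusted p of the 34 genes and read -0.68, -0.69 and -0.44. Its control pools read 10.86, 11.21 and 11.45 and its cKO pools 10.18, 10.53 and 11.01. Within each array the control pool was higher, yet across arrays the genotypes overlapped, since array 1 held the lowest and array 3 the highest pool of both genotypes. The mean of -0.60 ± 0.14 (SD, n = 3 arrays) made Zar1 1.52-fold lower in cKO, with an unadjusted p of 0.00672 and an adjusted p of 0.254 (limma over all genes). With median centring the Zar1 mean was -0.37. Over all alternative settings its adjusted p ran from 0.0924 to 1.00. Dazl, a germ cell translation activator, read -0.48, -1.11 and 0.65, and its second probe -0.28, -0.53 and 0.37. Ddx4, the germ cell helicase also called VASA, read -0.71, -0.55 and 0.33 by a dim probe, at 2.20 to 4.36 times background. Btg4, which brings the deadenylase to messages for clearance in meiosis, was nearly symmetrical on the slide that 2 arrays shared, at -0.87 on array 2 and 1.01 on array 3, with 0.08 on array 1. The highest Btg4 level was 9.77 among controls, on array 2, and 9.75 among cKO pools, on array 3. Mos, the kinase that holds mature eggs in metaphase, read -0.12, -0.31 and 0.41 and averaged -0.01 ± 0.38 (SD, n = 3 arrays). Gpr3, the receptor that keeps cyclic AMP high in the arrested oocyte, has no ratio here because its spots lay at background.

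H1foo, the oocyte linker histone and a chromatin gene, had the highest mean of the list in this fit. It read 0.23, 0.12 and 1.12, with a mean of 0.49 ± 0.55 (SD, n = 3 arrays, adjusted p = 0.499, limma). Its control pools were at 12.03, 12.01 and 11.57 and its cKO pools at 12.26, 12.13 and 12.69. Every cKO pool was above every control pool, with 0.0985 between the nearest pair, but the scanner's processed signals gave -0.10, -0.17 and 0.80 on the 3 arrays. The H1foo mean was 0.17 without array 3 and also 0.17 with those signals, where the mean of Dnmt1 was higher. Dppa3, also called Stella, which protects maternal DNA methylation, read -0.39, -0.84 and 0.55. Its levels were 10.13, 11.09 and 10.16 in control and 9.74, 10.25 and 10.70 in cKO, the control pool of array 2 again being the highest. Npm2, an egg nucleoplasmin, read -0.44, -0.12 and 0.36. The DNA methylation genes stayed closer to 0: Dnmt3l, the cofactor that sets maternal imprints, read -0.02, -0.08 and 0.25, and Dnmt1, the maintenance enzyme present in most dividing cells, read -0.06, 0.17 and 0.22. None of the 5 genes passed the test.

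Kit, the oocyte's receptor for kit ligand, was measured by 10 replicate spots of 1 probe and read -0.21, -0.03 and -0.40. Control pools were at 8.37, 8.28 and 8.52 and cKO pools at 8.15, 8.24 and 8.12, so that every cKO pool was below every control pool, by 0.0336 at the nearest pair. The Kit mean was -0.22 ± 0.18 (SD, n = 3 arrays, adjusted p = 0.611, limma), and it was -0.017 with median centring. Uchl1, a ubiquitin hydrolase abundant in oocytes and neurons, read -0.10, -0.34 and -0.25 by its brighter probe, and its pools also did not overlap. The dimmer Uchl1 probe gave 0.64, 0.08 and -0.39, so the 2 probes did not share a direction on arrays 1 and 2. The Uchl1 mean of -0.23 became -0.073 with median centring and -0.059 with the mean of its probes. Bcl2l10, a survival factor of the BCL2 family, read -0.15, -0.32 and 1.36, the second highest value of the list on array 3.

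Fbxw15 gave the highest, at 0.03, -0.66 and 1.495. It belongs, with Oog1, Oas1d, Oas1e and Omt2a, to gene families that lie in tandem copies and are read mainly in oocytes, so a probe may read more than its named copy. Oog1, an oocyte gene of the PRAME type, read 0.03, -0.96 and 0.88. Its control levels of 10.66, 11.82 and 10.56 and cKO levels of 10.69, 10.86 and 11.43 again put the control pool of array 2 on top and the cKO pool of array 3 next. Oas1d, an oocyte member of the oligoadenylate synthetase family, was above 0 on each array at 0.26, 0.12 and 0.75, although the scanner's processed signals gave -0.02 and -0.11 on arrays 1 and 2. Its neighbour Oas1e read -0.18, -0.30 and 0.08.

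Levels in the single pools describe the spread further. Each pool was on 1 array only, so a difference between pools and a difference between arrays cannot be told apart. Taking each gene's level relative to its own mean over the 6 pools, the members' median was -0.27, -0.09 and 0.36 in the cKO pools of arrays 1, 2 and 3. In the control pools it was -0.13, 0.18 and -0.13. The cKO pool of array 3 held the highest cKO level for 30 of 34 members (43.3% of all genes), all but Nlrp5, Pou5f1, Kit and Uchl1. The cKO pool of array 1 held the lowest for 29 (35.9% of all genes). In controls, the pool of array 2 was the highest for 22 members (30.8% of all genes), and the pool of array 3 for 10 (38.9% of all genes). Those 10 were Zp1, Zp2, Zp3, Nlrp5, Padi6, Pou5f1, Zar1, Dnmt1, Kit and Uchl1, so all 3 zona genes were among them. Over all 6 pools, the highest level was in the cKO pool of array 3 for 15 members (22.3% of all genes) and in the control pool of array 2 for 11 (14.7% of all genes). The cKO pools were all above the control pools for 1 member, H1foo (9.98% of all genes), and all below for 2, Kit and Uchl1 (9.82% of all genes). With 2 pools a genotype, separation is commoner for all genes. Without array 3, 14 members were all below (28.1% of all genes) and 4 all above (27.9% of all genes). Without array 1 there were 4 of each (17.3% of all genes below and 17.5% above), and without array 2 there were 3 below (17.8%) and 5 above (18.7%).

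**Figure D3:**
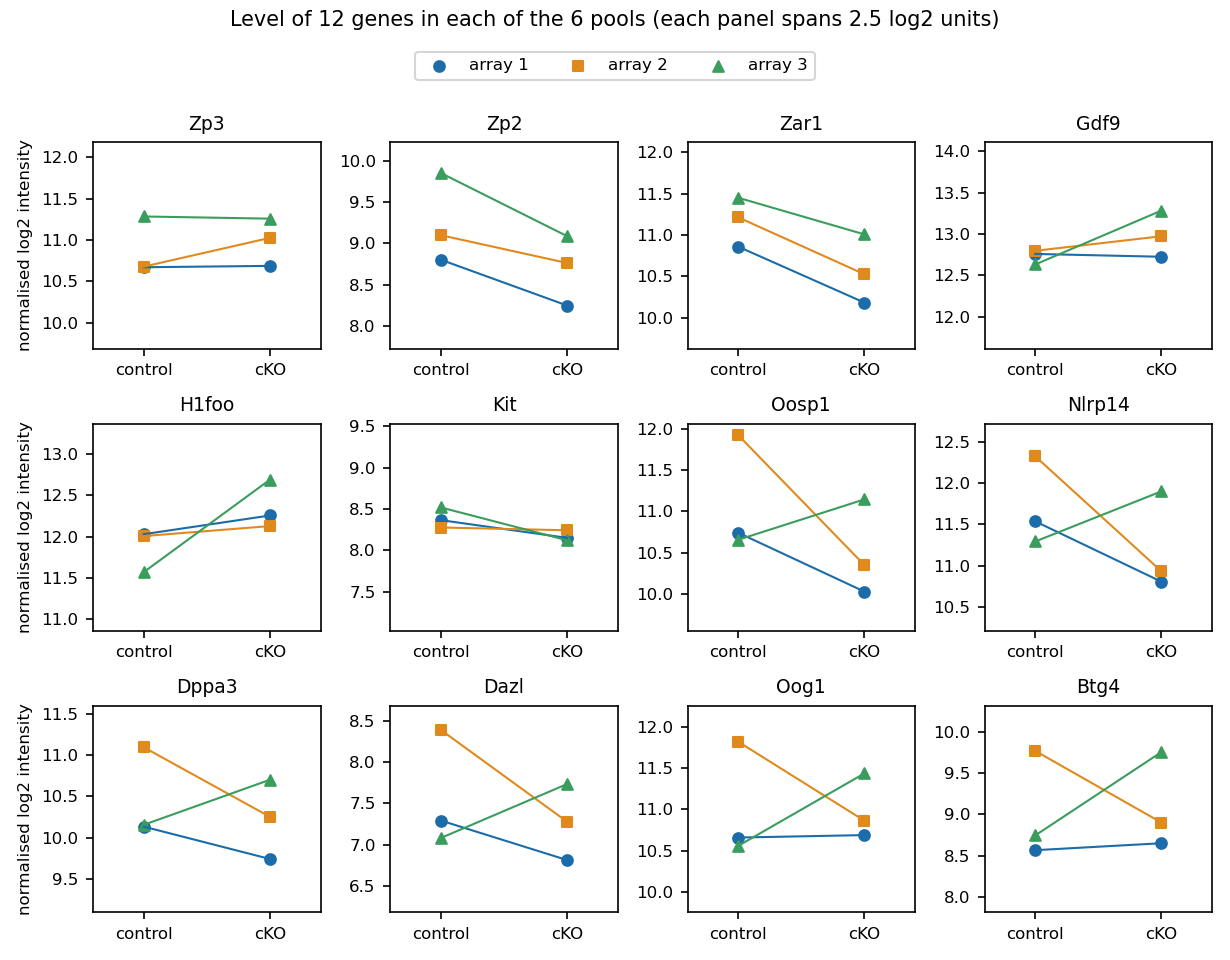
Normalised log2 intensity (vertical axis, 2.5 units in every panel) of 12 oocyte-enriched genes in the 3 control and 3 cKO pools, with a line joining the 2 pools of each array. For Oosp1, Nlrp14, Dppa3, Dazl, Oog1 and Btg4 the line of array 2 slopes down from control to cKO and that of array 3 slopes up, whereas for Zar1 and Zp2 all 3 lines slope down.

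Other oocyte genes outside the list had array medians in the same order, highest on array 3 and lowest on array 2. Of 35 such genes 31 were tested and 0 passed at an adjusted p of 0.05 (limma). At an unadjusted p under 0.05 the count was also 0 (12.3% of all genes). Their median log2 ratio was 0.03, from 0.01 on array 1 and -0.18 on array 2 to 0.31 on array 3. The ratio was highest on array 3 for 20 of the 31 (43.6% of all genes). Khdc3, a subunit of the subcortical maternal complex, read -0.49, -0.33 and 0.71, and Tle6, another subunit, 0.08, 0.22 and -0.17. Within that complex Ooep and Khdc3 were thus highest on array 3, and Nlrp5 and Tle6 lowest there. The highest means were those of Fmn2, a formin of the meiotic spindle, at 1.04 ± 1.06 (SD, n = 3 arrays), and of Bmp6, a BMP ligand, at 0.44 ± 0.61. A second Fmn2 probe averaged 0.02 and a second Bmp6 probe 0.15. Oas1c had the lowest mean, -0.32 ± 0.32, followed by Obox5, an oocyte homeobox gene, at -0.26 ± 0.81.

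The partners through which oocyte and granulosa cell signal to each other gave no call either. All 15 were tested and 0 passed at an adjusted p of 0.05 (limma). An unadjusted p under 0.05 was reached by 4 (12.3% of all genes), all 4 lower in cKO (6.43% of all genes). The median of the 15 was -0.22, with -0.59, -0.10 and 0.06 on the 3 arrays. It was -0.019 with median centring and -0.12 with the mean of all probes, -0.331 with slide as a block and -0.343 without array 3. Kitl, the granulosa ligand for KIT, read -0.55, -1.13 and 0.90, and a second Kitl probe averaged 0.01. Smad2, which carries the GDF9 signal, had the lowest mean at -0.61 ± 0.30 (SD, n = 3 arrays, adjusted p = 0.296, limma), followed by Bmpr1a, a BMP receptor, at -0.58 ± 0.35. The other Bmpr1a probe averaged 0.16. Smad3, also a carrier of the GDF9 signal, and Smad5, a carrier of BMP signals, had the highest means, at 0.29 ± 0.12 and 0.21 ± 0.09. Their other probes averaged 0.05 for Smad3 and 0.04 for each of 2 Smad5 probes.

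Cumulus expansion genes are switched on in the cells around the ovulating oocyte. These ovaries were taken after ovulation, on day 3.5 post copulation, and cumulus expansion itself was not measured. Of 8 such genes 6 were tested, Has2 and Ptgs2 being dim. All 6 means were above 0 (50% of all genes), though Vcan turned to -0.06 without array 3. Their median was 0.31, beside 0.00 for all genes. None passed at an adjusted p of 0.05 (limma), and 2 had an unadjusted p under 0.05 (12.3% of all genes). Cd44, the hyaluronan receptor, which immune cells also carry, had the highest mean at 1.62 ± 0.33 (SD, n = 3 arrays, adjusted p = 0.0958, limma), and its second probe averaged 1.54. Pfkp, a glycolytic enzyme, followed at 0.58 ± 0.40, while its 2 other probes averaged 0.42 and 0.01. Ptx3 and Tnfaip6, which organise the cumulus matrix, had the lowest means, at 0.18 ± 0.35 and 0.27 ± 0.14, and 2 other Ptx3 probes averaged 0.01 and 0.08.

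Markers of other ovarian cells also differed between arrays. The 6 smooth muscle markers had medians of 0.20, 1.07 and -1.004 on arrays 1, 2 and 3, opposite in order to the oocyte genes on arrays 2 and 3. The 10 macrophage markers read 0.94, 0.98 and -0.58, and the 7 surface epithelium markers 0.96, -0.37 and -0.76. Of 6 oviduct epithelium markers 4 were tested, with medians of 1.26, -0.50 and 0.13. Granulosa markers, all 12 tested, had medians of -0.42, -0.07 and -0.02. The 8 luteal markers had medians of 0.15, -0.26 and -0.23, but single members ran from -4.09 to 1.70. Of these, 1 was called lower, Star, the mitochondrial cholesterol carrier, named here after its values were seen (mean -4.09 ± 0.13, SD, n = 3 arrays, adjusted p = 0.0196, limma). No marker of the other cell type lists was called. A marker was tested only if well above background in 1 genotype's channel on all 3 arrays. Detection of the tested markers was thus partly set by that filter, and it does not show that each cell type was in every pool. Pax8 and Wnt7a, of the oviduct list, were not tested. Relative to each gene's mean over the pools, the smooth muscle median lay between -0.67 and 0.61 in the cKO pools and between -0.46 and 0.42 in the control pools. For macrophage markers the ranges were -0.55 to 0.71 and -0.41 to 0.09. The part of these cell type differences in the oocyte gene values was not tested.

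**Figure D4:**
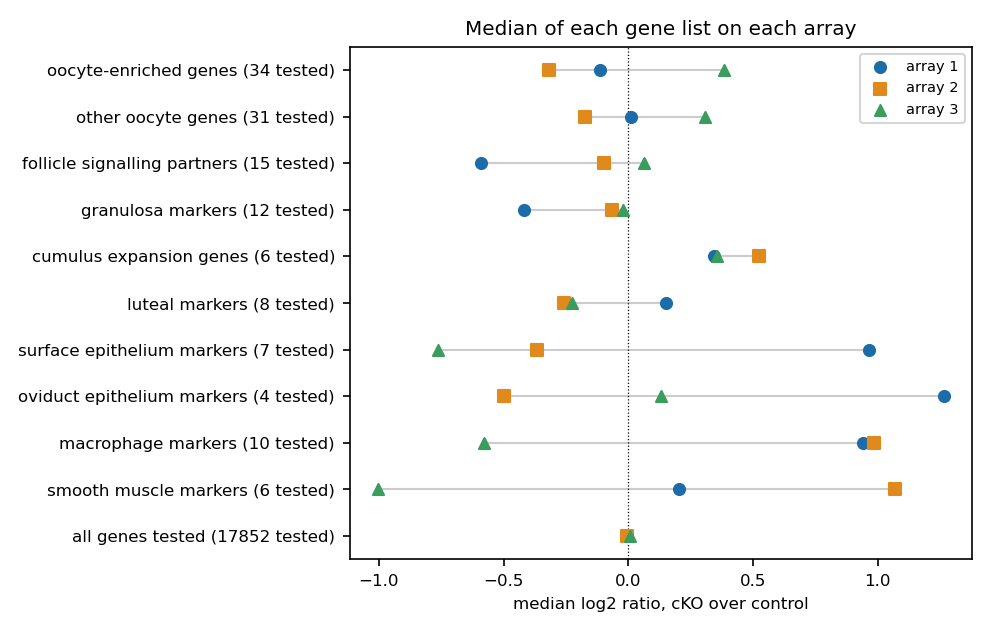
Median log2 ratio of cKO over control (horizontal axis) on each array, 1 symbol per array, for the oocyte-enriched genes and the other gene lists, with the number tested in brackets. The medians of the oocyte lists were highest on array 3 (0.38 and 0.31). Those of smooth muscle, surface epithelium and macrophage markers were lowest on that array (-1.004, -0.76 and -0.58).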

How the data were processed

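Ovary RNA pools were hybridised to 3 Agilent 2-colour arrays of 45018 features each. Per the file headers, the authors used Agilent Feature Extraction 9.1.3.1, and they deposited its spot intensities, flags and log10 ratio of red (control) over green (cKO). The deposited value table holds the same log10 ratio (largest difference 0). The genotype labels of arrays 2 and 3 end in the array's own number, and the driver was read as sf-1, as the series' design has it.

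From mean and median background intensities, limma 3.58.1 (R 4.3.3) applied normexp with an offset of 50 and loess within each array. Outlier-flagged spots (13, 4 and 0) were left out and replicate spots averaged. A probe was kept if well above background in 1 genotype's channel on all 3 arrays, and the brightest kept probe stood for a gene, giving 17852 genes. Names came from RefSeq accessions, symbols or synonyms, and otherwise from the files. The fit was lmFit and eBayes with an intercept only, two-sided, adjusted over all genes, at a threshold of 0.05. Each array counts as 1 replicate, so p-values measure the spread between arrays of pooled RNA. Pool levels came from loess and Aquantile normalisation and carry any dye bias. With 3 arrays, their number limits the precision.

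The members and gene lists were chosen with earlier results of these data known, so no list was tested. All members are accounted for. From the other oocyte, signalling partner and cumulus lists, the text names the top 2 and bottom 2 genes by mean log2 ratio, plus Kitl, Khdc3 and Tle6. Marker lists are given as medians and counts, apart from Star. Alternatives were the scanner's processed signals, median centring, scaled arrays, no filter, mean of probes, slide as a block and leaving out each array.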

Additional observations from a re-analysis of the deposited data

How the results depend on the processing

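No oocyte-enriched gene was called under any of the alternatives run, and their lowest adjusted p was 0.0924 (limma, Zar1, without array 3). At an unadjusted p under 0.05 the members numbered 2 with all arrays, 4 with median centring and 11 without array 3. Of the 17852 genes in all, 2201, 2736 and 4783 reached that level in the same 3 fits. These were not the same members. The 2 were Zp2 and Zar1, both lower in cKO. With median centring the 4 were Zp3, Padi6, Dnmt1 and Oas1d, all with means above 0, and Zp2 and Zar1 were not among them. The 11 without array 3 included Zp2 and Zar1, and all had means below 0. Genes called higher over the whole table were 12, and 27 with the scanner's signals, 26 with slide as a block, and 0 with median centring, scaled arrays or no filter. Genes called lower were 19, and 1 with median centring and 0 with scaled arrays or no filter. Leaving out 1 array gave 0 to 11 higher and 0 to 9 lower. Median centring left the median of all genes at 0.18, 0.11 and 0.05 on arrays 1, 2 and 3. Members higher on all 3 arrays were then 10 in place of 3 (28.9% of all genes), and 1 with the scanner's signals (11.5% of all genes). Members lower on all 3 were 2 in place of 4 with median centring (9.58% of all genes). Leaving out 1 array moved members with all cKO pools above control from 1 to between 4 and 5, and those below from 2 to between 3 and 14, where all genes at those 2 pools a genotype gave 17.3% to 28.1%. The cumulus median of 0.31 became 0.449 with the scanner's signals, 0.494 with median centring, and 0.315 to 0.438 without 1 array. The members' median stayed between -0.24 and 0.17. Some members' means changed sign. With median centring they were 0.12 (Bmp15), 0.11 (Nlrp4f), 0.036 (Ooep), 0.021 (Pou5f1), 0.17 (Mos), 0.16 (Npm2), 0.20 (Oog1) and 0.10 (Oas1e). With the scanner's signals they were -0.11 (Zp1), 0.015 (Nlrp4f), 0.062 (Ooep), -0.019 (E2f8), 0.032 (Mos), -0.034 (Btg4) and -0.0015 (Fbxw15). Scaling turned Btg4 to -0.0072. Without 1 array the means ran from -0.24 to 0.60 for Bcl2l10, -0.26 to 0.14 for Bmp15, -0.39 to 0.55 for Btg4, -0.79 to 0.087 for Dazl, -0.052 to 0.11 for Dnmt3l, -0.62 to 0.077 for Dppa3, -0.20 to 0.40 for E2f8, -0.31 to 0.76 for Fbxw15, -0.46 to 0.047 for Figla, -0.18 to 0.35 for Lhx8, -0.22 to 0.15 for Mos, -0.068 to 0.42 for Nlrp2, -0.56 to 0.25 for Nlrp4f, -0.16 to 0.26 for Nlrp5, -0.28 to 0.12 for Npm2, -0.47 to 0.071 for Ooep, -0.46 to 0.45 for Oog1, -0.15 to 0.040 for Pou5f1 and -0.0050 to 0.18 for Zp3. Of members that kept their sign, those besides Gdf9, Nlrp14 and Oosp1 that moved by over 1.5 times ran from -0.63 to -0.11 for Ddx4, 0.054 to 0.20 for Dnmt1, 0.17 to 0.67 for H1foo, -0.31 to -0.12 for Kit, -0.63 to -0.16 for Nobox, 0.19 to 0.50 for Oas1d, -0.24 to -0.049 for Oas1e, 0.19 to 0.44 for Padi6 and 0.030 to 0.23 for Zp1. The causes were not tested. The fit itself is paired, since each ratio sets 1 pool of each genotype side by side on 1 array.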
